A study of Mus musculus with 6 samples.

Results

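Transcripts of 10 secreted or shed signalling proteins were followed in bone marrow neutrophils: the chemokine genes Cxcl2, Ccl3, Ccl4, Ccl6, Ccl9 and Cxcl16, and the cytokine genes Osm, Tnf, Tnfsf14 and Tgfb1. They are a named list of 10 among the 46329 gene symbols of the series, each found in 1 row of the files. The RNA came from neutrophils that flow cytometry had separated from marrow of male wild-type (WT) mice, 3 libraries labelled Control and 3 from mice taken through chronic unpredictable mild stress (CUMS), a 4-week sequence of varied mild stressors used as a rodent model of depression. The labels do not state age, strain, the sorting gate or whether a library was 1 animal or a pool, so p-values measure the spread between these samples, which may be technical. The series title is about neutrophils that infiltrate the brain, and the comparison addresses how the transcripts of these cells in marrow differ after stress.

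Chemokines are small secreted proteins that bind heparan sulphate and draw leukocytes along gradients through G protein-coupled receptors. Neutrophils are both their targets and a source of them. Many cytokine transcripts are kept short-lived by AU-rich elements in their 3′ untranslated regions, bound by decay factors such as the product of Zfp36, and are induced by NF-kB and AP-1 when the cell is stimulated. TNF family ligands such as TNF and LIGHT (the product of Tnfsf14) are made as membrane proteins and can be shed. TGF-beta is secreted in a latent form that must be activated outside the cell. In marrow, such ligands can reach progenitors, stroma and other leukocytes.

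Of the 10 genes, 2 were lower in CUMS (Cxcl2 and Osm), 2 were higher (Ccl3 and Ccl6) and 6 did not pass an adjusted p of 0.05 in edgeR's quasi-likelihood test with Benjamini-Hochberg adjustment over 15777 genes. Of all genes tested, 4.5% passed, 2.36% upward and 2.14% downward. The 10 genes were named with earlier results of these data known, so their share is no independent evidence. Levels are given as CPM (counts per 1e6 counts of the library, after TMM scaling). In CPM, 6 of the 10 genes had groups that did not overlap, against 22.9% of all genes tested. The median log2 fold change was 0.07 over the 9 genes above the counting floor in every library and -0.01 over all genes tested. The libraries held 78845457 to 109757558 estimated counts, about 19711364 to 27439390 read pairs.

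**Figure D1:**
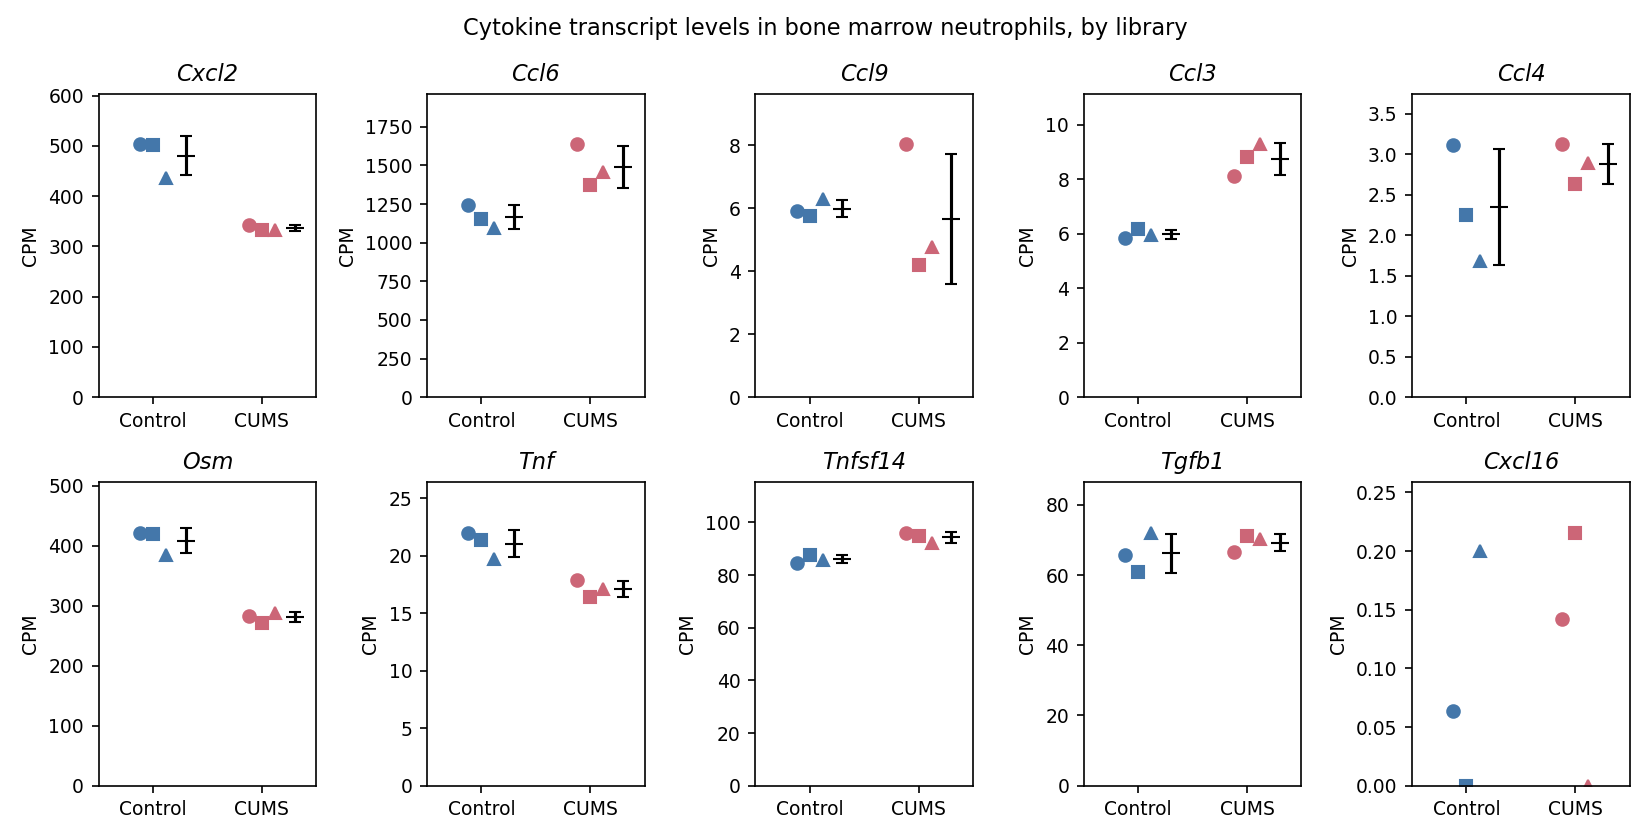
Level of each of the 10 transcripts in CPM (vertical axes, each from 0) in the 3 Control (blue) and 3 CUMS (red) libraries. Circles, squares and triangles are replicates 1, 2 and 3, and black bars show the mean ± SD (not drawn for Cxcl16, which is near 0). The groups are apart for Cxcl2, Ccl6, Ccl3, Osm, Tnf and Tnfsf14, and overlap for Ccl9, Ccl4, Tgfb1 and Cxcl16.

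The libraries carried the defining transcripts of neutrophils. All 12 neutrophil markers were detected and tested, among them Ly6g at 453.5 ± 22.7 CPM (SD, n = 3) in Control and 434.4 ± 55.8 CPM in CUMS. Their summed level was 127450 to 138691 CPM in Control and 108714 to 134734 CPM in CUMS. In edgeR Mmp9 passed upward and Camp and Ltf downward, and 7 markers had an unadjusted p under 0.05. DESeq2 called Mmp9, Csf3r and Ltf (2 upward, 1 downward), and voom called these with S100a8 and Camp (2 upward, 3 downward). Other cells were also represented. Of 14 monocyte and macrophage markers, 3 passed upward (Csf1r, F13a1 and Fn1), with summed levels of 723 to 767 and 696 to 784 CPM. Of 9 eosinophil markers, Prg2 and Epx passed upward (sums of 44.9 to 51.9 and 51.6 to 60.3 CPM), and of 12 erythroid markers 9 did (1307 to 1877 and 2527 to 3014 CPM). DESeq2 called Prg2 but not Epx, and voom called both. On the erythroid list DESeq2 called 9 and voom 8. No marker of the basophil and mast cell list (8 genes) or the B cell list (10 genes) passed in edgeR, where 3 and 1 had an unadjusted p under 0.05. DESeq2 called 0 and 1 (Pax5) and voom 1 (Gata2) and 1 (Pax5). Their summed levels in Control and CUMS were 39.3 to 43.6 and 35.3 to 40.8 CPM, and 23.6 to 31.5 and 34.4 to 40.3 CPM. In bulk RNA, fewer cells of a type and less RNA per cell cannot be told apart.

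The most abundant chemokine transcript was Ccl6, and the sequence before its start is shown with those of Cxcl2 and Ccl3, because these 3 chemokine genes changed in different directions. The stretches are the 250 bases before the RefSeq start on GRCm38.p6, for Cxcl2 on the plus strand at chr5:90903649-90903898, for Ccl6 on the minus strand at chr11:83593088-83593337 and for Ccl3 on the minus strand at chr11:83649379-83649628. Capitals mark matches to the kB consensus of NF-kB and to GAGGAA, the core of PU.1 sites, on either strand.
Cxcl2: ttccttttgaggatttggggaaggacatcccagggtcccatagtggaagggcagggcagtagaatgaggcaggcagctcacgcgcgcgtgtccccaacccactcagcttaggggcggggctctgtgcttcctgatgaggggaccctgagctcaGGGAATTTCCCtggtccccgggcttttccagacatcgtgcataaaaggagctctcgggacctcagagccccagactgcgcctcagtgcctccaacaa
Ccl6: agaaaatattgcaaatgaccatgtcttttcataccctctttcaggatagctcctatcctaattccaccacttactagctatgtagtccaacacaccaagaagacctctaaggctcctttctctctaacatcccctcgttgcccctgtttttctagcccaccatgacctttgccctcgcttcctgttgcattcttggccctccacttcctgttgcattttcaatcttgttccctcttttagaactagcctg
Ccl3: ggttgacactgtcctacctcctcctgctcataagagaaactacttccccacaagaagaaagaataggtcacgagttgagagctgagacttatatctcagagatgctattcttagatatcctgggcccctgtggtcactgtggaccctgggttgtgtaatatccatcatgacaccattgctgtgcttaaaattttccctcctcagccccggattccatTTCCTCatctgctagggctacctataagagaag
The Cxcl2 stretch held 2 overlapping kB matches, the nearer ending 86 bases before the start, and 7.25% of the 32851 promoter stretches of this length held at least 1. A GAGGAA core was present in 23.3% of them, once in Ccl3 and in neither of the others shown. Such stretches were at hand for 7 of the 10 genes. Of those not shown, Ccl9 and Tgfb1 had 1 kB match each, and Tnf and Tnfsf14 had 1 GAGGAA core each. Such matches are letters in a window and do not show binding.

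Cxcl2 encodes a chemokine that attracts neutrophils through CXCR2. Its level was 503.4, 501.4 and 436.1 CPM in Control replicates 1 to 3 and 343.3, 333.3 and 333.4 CPM in CUMS replicates 1 to 3. All 3 CUMS libraries were below all 3 Control libraries, and Control replicate 3 was the lowest of its group. The level was 1.43-fold lower in CUMS, a log2 fold change of -0.51 ± 0.054 (SE, edgeR adjusted p = 3.2e-04; lower in 3 of 3 CUMS libraries). The gene lies on chromosome 5 at 90903871 to 90905938 (GRCm38, plus strand).

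Ccl6 encodes a CC chemokine of rodents, a CCR1 ligand made abundantly by myeloid cells. It was the 69th most abundant of the genes tested, with 1247, 1151 and 1097 CPM in Control and 1638, 1376 and 1455 CPM in CUMS. The groups did not overlap, and CUMS replicate 1 was the highest library. It rose 1.28-fold (log2 fold change 0.35 ± 0.063, edgeR adjusted p = 0.0084). It missed the threshold when Control replicate 2 or 3 was left out (adjusted p = 0.0516 and 0.0517). Ccl6 lies on the minus strand of chromosome 11 at 83587882 to 83593087, inside the span of the noncoding gene E230016K23Rik on the other strand. That gene had 4.74 to 5.27 CPM in Control and 6.12 to 7.22 CPM in CUMS (log2 fold change 0.46 ± 0.13, edgeR adjusted p = 0.083). Whether reads were counted by strand is not stated, so reads from the span that the 2 genes share cannot be told apart.

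Ccl9 encodes another CCR1 ligand and is the next gene on the same strand, 9.245 kb from Ccl6. It had 5.90, 5.76 and 6.28 CPM in Control and 8.03, 4.21 and 4.75 CPM in CUMS. CUMS replicate 1 was above all Control libraries and the other 2 CUMS libraries were below them. The coefficient of variation was 36.5% in CUMS and 4.51% in Control. Its log2 fold change was -0.08 ± 0.21 (95% interval -0.55 to 0.38, edgeR adjusted p = 0.91). Without CUMS replicate 1 it was -0.42 (adjusted p = 0.18), and without CUMS replicate 2 or 3 it was 0.10 or 0.03. The ratio of Ccl6 to Ccl9 CPM was 211, 200 and 175 in Control and 204, 327 and 306 in CUMS. On the log2 scale the ratio was higher by 0.49 in CUMS, with overlapping groups (exact two-sided permutation p = 0.2, adjusted p = 0.3 over the 3 pairs compared).

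Ccl3 encodes MIP-1alpha, a ligand of CCR1, and Ccl4 encodes the related chemokine MIP-1beta. Both were scarce. Ccl3 had 5.84, 6.15 and 5.95 CPM in Control and 8.11, 8.83 and 9.29 CPM in CUMS, from 115 to 251 read pairs per library. Every CUMS library was above every Control library. Ccl3 rose 1.46-fold (log2 fold change 0.55 ± 0.12, edgeR adjusted p = 0.022), the largest of the upward changes in the 10 genes that passed. Leaving out CUMS replicate 1 kept this call, and leaving out any other library ended it (adjusted p 0.063 to 0.112), while the log2 fold change stayed between 0.51 and 0.60.

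Ccl4, 13.228 kb from Ccl3 on the opposite strand, had 3.11, 2.25 and 1.69 CPM in Control and 3.12, 2.63 and 2.89 CPM in CUMS, or 35.8 to 78.0 read pairs. The Control libraries were uneven, and replicate 1 reached the level of the highest CUMS library. Its log2 fold change was 0.29 ± 0.23 (95% interval -0.22 to 0.81, edgeR adjusted p = 0.61). Without Control replicate 1 it was 0.55 and without Control replicate 3 it was 0.11. The log2 ratio of Ccl3 to Ccl4 was 1.39 in Control (SD 0.46, n = 3) and 1.60 in CUMS (SD 0.20, n = 3), with overlapping groups (exact two-sided permutation p = 0.7, adjusted p = 0.7). The passing of Ccl3 and not of Ccl4 is therefore no shown difference between them.

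Several of these ligands are also made by other marrow cells. Monocytes and macrophages make Ccl3, Ccl6, Ccl9 and Tnf, and eosinophils make Ccl6. F13a1 and Fn1, monocyte markers, had 1.21 ± 0.182 and 2.80 ± 0.599 CPM in Control and 3.07 ± 0.651 and 7.30 ± 1.15 CPM in CUMS, and Csf1r rose from 176 ± 5.72 to 201 ± 1.40 CPM. Csf1r kept its call when CUMS replicate 1 was left out and missed it for every other library (edgeR adjusted p 0.058 to 0.114). The macrophage markers C1qa (0.383 and 0.369 CPM) and Mrc1 (0.480 and 0.539 CPM) and the monocyte receptor gene Ccr2 (0.932 and 1.09 CPM) did not pass. The eosinophil marker Prg2 rose from 0.885 ± 0.114 to 4.82 ± 0.708 CPM. The part of these cells in the rise of Ccl3 and Ccl6 was not tested.

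Cxcl2 and Ccl3 changed in opposite directions, and their levels were closer to each other in CUMS. In CPM, not divided by transcript length, Cxcl2 was 86.2, 81.5 and 73.3 times Ccl3 in Control and 42.3, 37.7 and 35.9 times in CUMS. The difference on the log2 scale was -1.06, with groups that did not overlap (exact two-sided permutation p = 0.1, adjusted p = 0.3). With 3 libraries against 3, 0.1 is the smallest p this test allows, so the design cannot reach 0.05. Both genes had passed in opposite directions in these same values, so the ratio restates their changes and is no independent evidence.

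Cxcl16 encodes a transmembrane chemokine that binds CXCR6 and is shed by ADAM10. It was listed at 5, 0 and 17 estimated counts in Control and 12, 24 and 0 in CUMS, at most 6 read pairs in a library. Only Control replicate 3 and CUMS replicate 2 exceeded the floor of 12 estimated counts (3 read pairs), which is 0.108 to 0.153 CPM. These values were at the limit of detection in both groups and no fold change is given. Whether the annotation behind the deposited values assigned Cxcl16 reads elsewhere is not known, so a value near 0 does not show that the transcript was absent. Its gene overlaps Zmynd15 by 552 bases on chromosome 11, and Zmynd15 was also near 0 (at most 0.108 CPM).

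Osm encodes oncostatin M, an IL-6 family cytokine that acts through gp130 (Il6st) with the oncostatin M receptor (Osmr) or the LIF receptor (Lifr). Its level was 421.9, 419.1 and 385.0 CPM in Control and 282.6, 272.0 and 288.4 CPM in CUMS. The groups were well apart, and the lowest Control library was again replicate 3. Osm was 1.45-fold lower in CUMS, with a log2 fold change of -0.54 ± 0.046 (edgeR adjusted p = 6.9e-05). The gene lies on chromosome 11 at 4236420 to 4241026 on the plus strand, far from the Ccl genes. Among the 9 genes above the floor, the log2 profile of Osm over the 6 libraries, centred on its own mean, lay nearest to that of Cxcl2, with a root mean square difference of 0.04.

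Tnf encodes the inflammatory cytokine TNF and had 22.0, 21.4 and 19.7 CPM in Control and 17.9, 16.4 and 17.1 CPM in CUMS. All 3 CUMS libraries were lower than all 3 Control libraries. The log2 fold change was -0.30 ± 0.081 (95% interval, not adjusted, -0.47 to -0.12), which edgeR did not call (adjusted p = 0.065). DESeq2, limma voom with quality weights and edgeR on values divided by 4 did call it (adjusted p = 0.017, 0.039 and 0.042). Tnf lies on chromosome 17 at 35199381 to 35202007, minus strand.

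Tnfsf14, also on chromosome 17 (57189492 to 57194177, minus strand), encodes LIGHT, a ligand of the lymphotoxin beta receptor and of HVEM (Tnfrsf14). It had 84.7, 87.6 and 85.7 CPM in Control and 96.1, 94.8 and 92.1 CPM in CUMS. The groups were tight and apart, yet the difference was 9.68% (log2 fold change 0.13 ± 0.045, edgeR adjusted p = 0.14) and did not pass. Tgfb1, the TGF-beta 1 gene on chromosome 7 (25687002 to 25705077, plus strand), had 65.6, 61.0 and 72.1 CPM in Control and 66.5, 71.1 and 70.2 CPM in CUMS. Its groups overlapped and its log2 fold change was 0.07 ± 0.064 (95% interval -0.08 to 0.21, edgeR adjusted p = 0.70). It was 0.013 without Control replicate 2 and 0.13 without Control replicate 3.

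**Figure D2:**
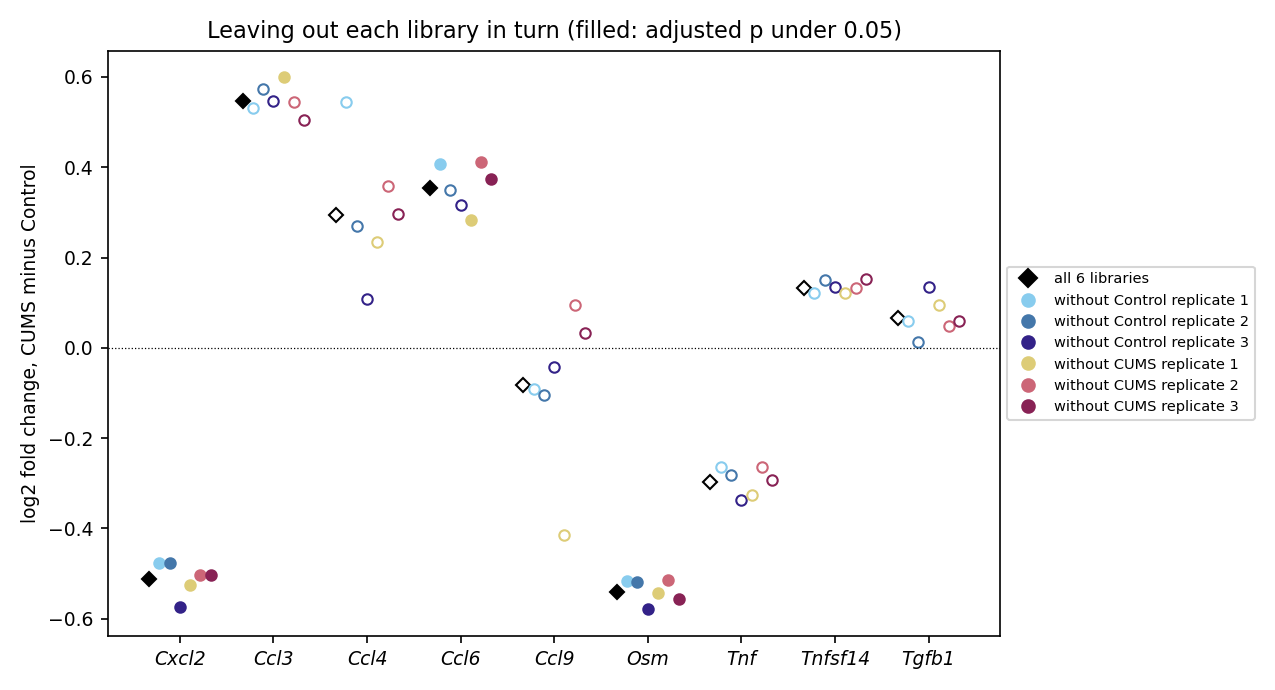
Log2 fold change of 9 transcripts, CUMS minus Control (vertical axis), with all 6 libraries (black diamonds) and with each library left out in turn (coloured circles). Filled symbols have an adjusted p under 0.05. Cxcl2 and Osm stay filled throughout, Ccl6 and Ccl3 lose the fill without some libraries, and Ccl9 crosses 0.

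To compare levels between genes, CPM was divided by the length of the coding transcript in kb (GENCODE M21). In Control the order was Ccl6 (809 ± 52.8 CPM per kb), Cxcl2 (433 ± 34.5), Osm (180 ± 9.05), Tnfsf14 (46.6 ± 0.803), Tgfb1 (30.4 ± 2.57), Tnf (12.8 ± 0.716), Ccl3 (7.81 ± 0.209), Ccl4 (3.56 ± 1.09), Ccl9 (1.99 ± 0.090) and Cxcl16 last (SD, n = 3 each). No neighbours in that order overlapped between libraries. In CUMS the same scale gave 1035 ± 93.4 for Ccl6, 304 ± 5.19 for Cxcl2 and 124 ± 3.65 for Osm. There Ccl3 (11.4 ± 0.773) and Tnf (10.5 ± 0.437) overlapped. If the length of all annotated exons is used instead, Tgfb1 falls to 13.1 ± 1.11 CPM per kb in Control and overlaps Tnf. Cxcl2 falls to 232 ± 18.5 in Control and 163 ± 2.78 in CUMS, nearer to Osm, which stays at the values above.

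Ccl6, Cxcl2 and Osm together made up 90.9% to 92.1% of the summed CPM of the 10 genes. The Ccl6 share was 52.9%, 51.0% and 52.0% in Control and 66.5%, 63.1% and 64.0% in CUMS. The Cxcl2 share was 21.3%, 22.2% and 20.7% in Control and 13.9%, 15.3% and 14.7% in CUMS. The summed level itself overlapped between groups, at 2110 to 2360 CPM in Control and 2179 to 2464 CPM in CUMS. The mix of ligand transcripts thus differed between groups while their total did not separate them.

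**Figure D3:**
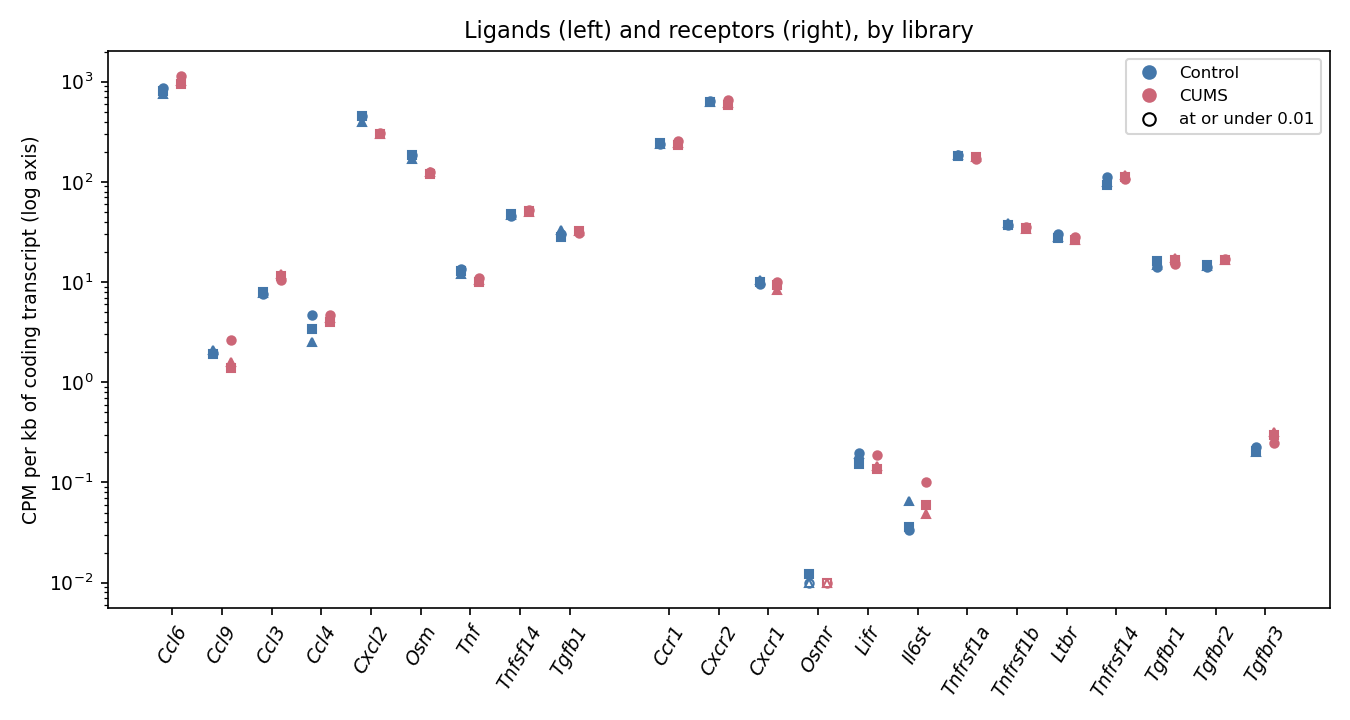
Levels per library in CPM per kb of coding transcript (log vertical axis) of 9 ligand transcripts (left) and of receptor transcripts (right) in Control (blue) and CUMS (red). Circles, squares and triangles are replicates 1, 2 and 3, and open symbols lie at or under 0.01. Ccl6, Cxcl2 and Osm are the highest ligands, Cxcr2, Ccr1 and Tnfrsf1a are high among the receptors, and Osmr is near the bottom.

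Transcripts for the receptors of these ligands were read in the same libraries. Of 18 genes on the receptor list, 15 were tested, and the median log2 fold change was 0.02. Tgfbr2 passed upward and Ccrl2 downward. The ligand of Ccrl2 named below, chemerin, is not among the 10 genes. Cxcr2, the receptor for Cxcl2, was at 1919 ± 44.7 and 1880 ± 108 CPM (log2 fold change -0.03 ± 0.043), and Cxcr1 at 14.4 ± 0.671 and 13.5 ± 1.16 CPM (-0.10 ± 0.098). Ccr1, the receptor gene for Ccl3, Ccl6 and Ccl9, was at 679 ± 9.99 and 687 ± 32.0 CPM (0.02 ± 0.041). Ccr3 (1.76 and 2.13 CPM) and Cxcr6 (0.236 and 0.260 CPM) were low, and Ackr2, a chemokine scavenger, was under the floor in every library.

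Ccrl2, an atypical receptor that binds chemerin, had 31.3, 31.4 and 32.0 CPM in Control and 25.1, 24.1 and 21.3 CPM in CUMS. It fell by 0.43 ± 0.075 on the log2 scale (edgeR adjusted p = 0.0078), and the call held without each library in turn (0.010 to 0.049). Transcripts for the Osm receptors were scarce or under the floor, and as for Cxcl16, values near 0 do not show absence. Osmr was under the floor in every library, Il6st was at 0.389 ± 0.153 and 0.606 ± 0.241 CPM, and Lifr at 1.74 ± 0.225 and 1.51 ± 0.255 CPM.

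The TNF receptor genes Tnfrsf1a (397 ± 4.73 and 377 ± 7.50 CPM) and Tnfrsf1b (144 ± 3.19 and 132 ± 2.69 CPM) had log2 fold changes of -0.07 ± 0.037 and -0.12 ± 0.042, which did not pass (edgeR adjusted p = 0.35 and 0.16). The LIGHT receptor genes Ltbr (60.4 and 56.7 CPM) and Tnfrsf14 (120 and 131 CPM) did not pass either (0.45 and 0.35). Tgfbr2, the ligand-binding TGF-beta receptor subunit, had 115.5, 119.4 and 116.4 CPM in Control and 137.2, 135.2 and 135.3 CPM in CUMS. It rose by 0.21 ± 0.041 on the log2 scale (edgeR adjusted p = 0.013), and missed the threshold when replicate 3 of either group was left out (0.056 for Control and 0.065 for CUMS). Its partner Tgfbr1 was at 86.8 ± 6.40 and 94.4 ± 7.11 CPM (0.12 ± 0.068, adjusted p = 0.41), and the co-receptor Tgfbr3 at 1.28 and 1.76 CPM (0.45 ± 0.24, adjusted p = 0.37).

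**Figure D4:**
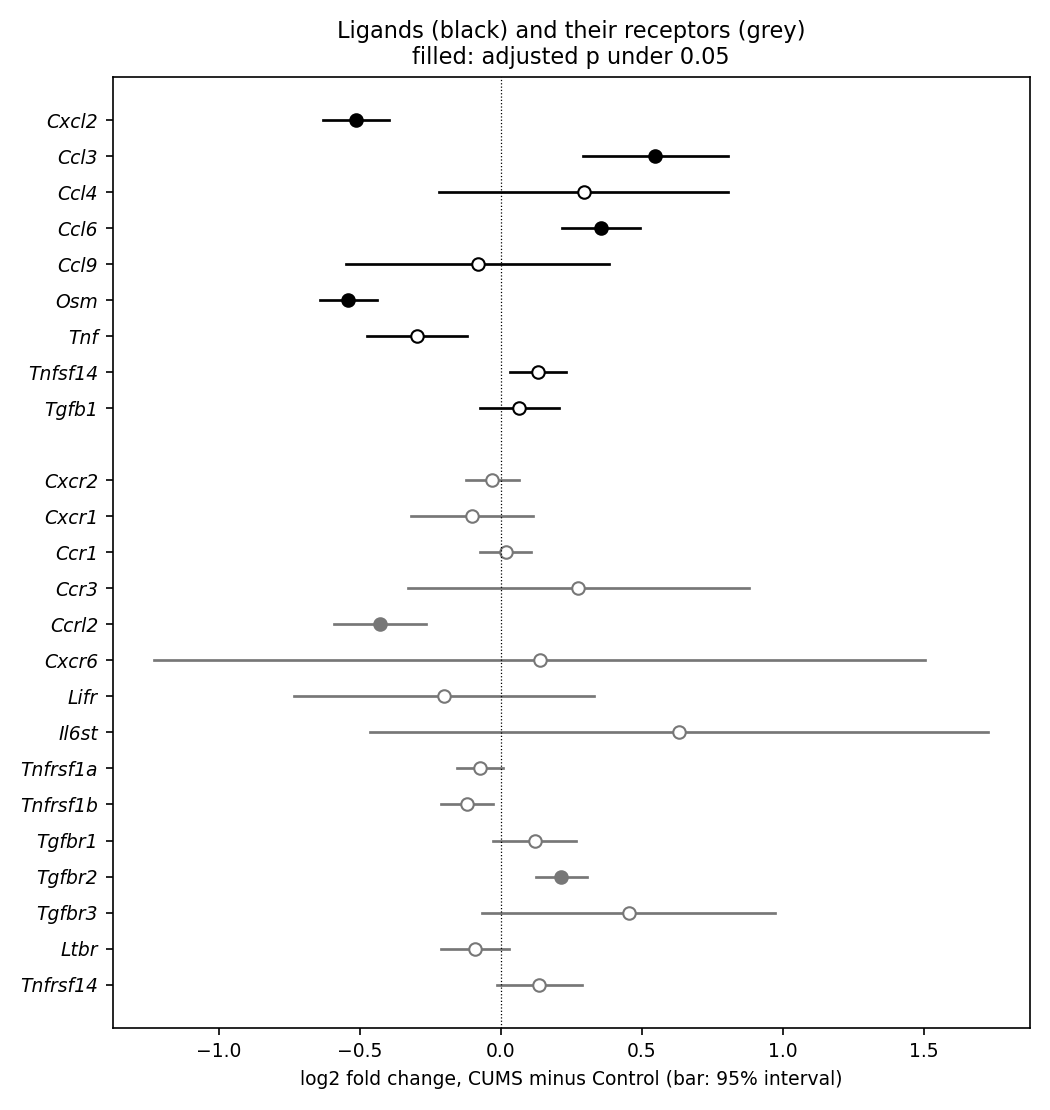
Log2 fold change, CUMS minus Control (horizontal axis), of 9 ligand genes (black) and 15 receptor genes (grey), with 95% intervals not adjusted for multiple tests. Filled points have an adjusted p under 0.05: Cxcl2, Ccl3, Ccl6 and Osm among the ligands, Ccrl2 and Tgfbr2 among the receptors.

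Other ligands of the same families were detected to different extents. Of the other 31 chemokine genes, 12 were at 0 in every library, 19 never exceeded the floor and 7 were tested. None passed in edgeR, where 2 had an unadjusted p under 0.05, and 1 passed in DESeq2 and 0 in voom. Their median log2 fold change was -0.10. The nearest relative of Cxcl2 tested, Cxcl3, had 4.26, 2.59 and 3.73 CPM in Control and 2.16, 1.91 and 2.40 CPM in CUMS (log2 fold change -0.71 ± 0.22, edgeR adjusted p = 0.10; DESeq2 0.039). Cxcl12, which encodes a CXCR4 ligand, had 0.191, 0.503 and 0.436 CPM in Control and 0.570, 0.890 and 1.03 CPM in CUMS. These groups did not overlap either, with Cxcl12 higher in CUMS (log2 fold change 1.13 ± 0.47, edgeR adjusted p = 0.24, from 3.75 to 27.8 read pairs). Cxcl3 and Cxcl12 were the 2 of these 7 tested genes without overlap, against 22.9% of all genes tested. Cxcl1 exceeded the floor in 1 library. At or under the floor in every library were 7 of 16 other TNF superfamily genes, 1 of 7 IL-6 family genes and 9 of 13 TGF-beta family genes. Of the 16 other TNF superfamily genes 6 were tested, of the 7 there were 4 and of the 13 there were 3, and none of these passed in edgeR, DESeq2 or voom (0, 0 and 2 with an unadjusted p under 0.05 in edgeR). The abundant ones were Ltb (82.3 and 85.5 CPM), Tnfsf13b (76.1 and 76.5 CPM) and Inhba (135 and 125 CPM). Of 27 other cytokine genes 12 were tested and Il1b passed, from 776 ± 39.8 to 608 ± 17.1 CPM (log2 fold change -0.35 ± 0.044, edgeR adjusted p = 0.0010). Il16 was at 483 ± 7.16 and 530 ± 7.56 CPM (0.13 ± 0.036, edgeR adjusted p = 0.058) and passed upward with DESeq2, voom, RLE scaling and values divided by 4 (0.0025, 0.017, 0.0495 and 0.046). Csf1 was at 48.2 ± 2.70 and 41.6 ± 1.79 CPM (-0.21 ± 0.063, edgeR adjusted p = 0.090) and passed downward with DESeq2 (0.032).

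Of 13 genes for release and activation of these ligands, 7 were tested. Adam17, the TNF sheddase, was at 72.7 and 73.9 CPM, its partner Rhbdf2 at 187 and 180 CPM, Adam10 at 124 and 128 CPM, and Furin, which cleaves the TGF-beta precursor, at 234 and 252 CPM, and none of these passed. Thbs1, encoding thrombospondin 1, which can activate latent TGF-beta, fell from 2214 ± 69.6 to 1812 ± 73.2 CPM (log2 fold change -0.29 ± 0.039, edgeR adjusted p = 0.0018).

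Of 25 genes that control cytokine transcripts, all tested, 7 fell and 0 rose in edgeR, against 2.14% and 2.36% of all genes tested. DESeq2 and voom gave the same counts on the same libraries, but both called more of all genes tested. They called 561 and 458 downward, against 338 in edgeR, and 678 and 495 upward, against 372. The list was chosen with earlier results of these data known, so its counts are no independent evidence. The median log2 fold change was -0.09, and 1 gene was higher with an unadjusted p under 0.05. Junb, an AP-1 subunit gene, had 485.8, 471.0 and 487.9 CPM in Control and 325.5, 323.9 and 309.3 CPM in CUMS (log2 fold change -0.59 ± 0.039, edgeR adjusted p = 1.2e-05). Zfp36, the gene of the decay factor tristetraprolin, fell by 0.37 ± 0.044 on the log2 scale from 955 ± 53.5 to 739 ± 14.5 CPM, and Bcl3, a nuclear IkB family gene, by 0.46 ± 0.062. Jun and Fos fell by 0.27 ± 0.049 and 0.19 ± 0.034. Their calls each ended without 3 of the 6 libraries: Control replicates 2 and 3 and CUMS replicate 3 for Jun, and Control replicate 2 and CUMS replicates 2 and 3 for Fos. Egr1 and Nfkbie (-0.20 and -0.30) lost their calls whichever library was left out (adjusted p 0.070 to 0.12 and 0.061 to 0.204). The NF-kB subunit genes Nfkb1 and Rela were at 182 and 185 CPM and at 88.2 and 91.4 CPM.

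Of 21 downstream signalling genes, all tested, 2 passed upward, 1 passed downward and 18 did not pass in edgeR. The shares of all genes tested were 2.36% upward and 2.14% downward. DESeq2 called 3 upward and 2 downward, and voom 3 and 1. The median log2 fold change was 0.02, and this list too was chosen with earlier results of these data known. Socs3, a feedback inhibitor induced by gp130 cytokines among others, fell from 114 ± 6.35 to 78.6 ± 1.73 CPM (log2 fold change -0.54 ± 0.052, edgeR adjusted p = 1.7e-04). A link between this fall and the lower Osm level was not tested. Jak1, a kinase gene of gp130 signalling, rose by 0.17 ± 0.038. Its call was lost when replicate 1 or 2 of Control, or replicate 2 or 3 of CUMS, was left out (edgeR adjusted p 0.073 to 0.125).

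AU-rich elements were read from GENCODE transcripts, 1 coding transcript per gene. The nonamer TTATTTATT, the core of strong elements, was present in the 3′ untranslated region of Cxcl2 (4 times, overlaps counted) and Tnf (5 times) and in none of the other 8. Among 11221 genes tested that have such a region of at least 50 bases, 7.25% held it at least once and 1.43% at least 2 times. The densest stretch of 30 bases is shown for both, with the nonamers in capitals, because only these transcripts held the nonamer.
Cxcl2: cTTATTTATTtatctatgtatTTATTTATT
Tnf: ttaTTATTTATTATTTATTTATTATTTATT
The shorter pentamer ATTTA occurred 15.0, 12.2 and 10.5 times per kb in Cxcl2, Ccl3 and Tnf, 7.41 in Tgfb1, 6.62 in Ccl4, 5.90 in Osm, 4.24 in Ccl6, 2.03 in Ccl9, 1.41 in Cxcl16 and 0.981 in Tnfsf14, against a median of 1.21 over the genes tested. Ccl3 thus lay between Cxcl2 and Tnf in pentamers per kb, and Osm held 6 pentamers and no nonamer. The Tgfb1 and Ccl4 values rested on 1 and 2 pentamers in short regions of 135 and 302 bases. Transcript decay was not measured, and the part of these elements in the changes was not tested.

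Profiles over the 6 libraries were compared with those of 6440 other genes of at least 10 CPM, as the root mean square difference of centred log2 CPM. Nearest to Cxcl2 were Thbd (0.050), which encodes thrombomodulin, Bcl3 (0.061) and Olfm4 (0.062), a granule protein gene. Nearest to Osm were B230303A05Rik (0.031), Hsd17b7 (0.046), an enzyme of sterol synthesis, and Tagln2 (0.054). Abcg1 (0.038), a cholesterol exporter gene, Map3k15 (0.055) and Susd3 (0.060) lay nearest to Ccl3, and Ninj1 (0.043), Ube2l6 (0.046) and Jaml (0.048) to Ccl6. With 2 groups of 3, such likeness cannot be told apart from a group difference of like size.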

How the data were processed

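RNA-seq libraries (paired-end, from total RNA) were made from 3 Control and 3 CUMS samples. Reads were handled with cutadapt 1.16.5 and bcl2fastq 2.19, with HISAT2 2.1 and with featureCounts 1.6.4, on build mm10, per the submitters' processing notes, which also list DESeq2 2.11.40.6 and state no roles. The deposited values are whole numbers per gene and were treated as estimated counts. In them, 4, 8, 12 and 16 were 1.89, 1.66, 1.41 and 1.38 times as frequent as adjacent values, so 4 was taken as 1 read pair. Of 47561 rows, 1588 carry identifiers of assembled transcripts. For a symbol with several rows, the most abundant row was kept. Floors cover counting error only.

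The values entered edgeR 4.0.16 (R 4.3.3) with filterByExpr, TMM scaling and group as the single term. SEs of log2 fold changes derive from the F statistic, and intervals are at 95%. The test was checked on simulated counts without the steps of 4, so this check does not cover that trait of the deposited values. Alternatives were RLE scaling, DESeq2 1.42.0, limma 3.58.1 voom with quality weights, no filter, a replicate block, values divided by 4, summed rows and leaving out each library. Named genes were the 10 members, all tested receptors, the genes past the threshold in the other lists (at most 8 of at least 1 CPM) and the 3 most alike genes of at least 10 CPM. Markers, and other genes given for their level or kinship (such as Cxcl3, Cxcl12, Il16, Csf1, Ltb and Adam17), were chosen after their values were seen. Members and lists were chosen with earlier results of these data known. Coordinates are GENCODE M21 on GRCm38 and promoters RefSeq, GRCm38.p6; protein sequences were not used here. Some genes of the receptor and signalling lists are not reported here.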

Additional observations from a re-analysis of the deposited data

How the results depend on the processing

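Over 13 alternatives, Cxcl2 and Osm stayed lower and past the threshold (log2 fold changes -0.57 to -0.48 and -0.58 to -0.51). Tnf passed with DESeq2 (-0.29), voom with quality weights (-0.30) and values divided by 4 (-0.30). Leaving out 1 library gave log2 fold changes of 0.51 to 0.60 for Ccl3, 0.28 to 0.41 for Ccl6 and -0.42 to 0.096 for Ccl9, which turned to 0.096 without CUMS replicate 2 and 0.032 without CUMS replicate 3. The difference in the Ccl3 to Ccl4 log2 ratio was -0.032 to 0.42 and turned negative without Control replicate 1. Cxcr2 (-0.073 to 0.011) turned positive without CUMS replicate 2 and Ccr1 (-0.017 to 0.052) negative without CUMS replicate 1, neither called. Members called were 4, and 2 to 4 without 1 library: 2 without Control replicate 2 or 3. Genes called were 710 in the reported fit, 305 to 697 without 1 library and 1239 with DESeq2. The causes were not tested, though 5 libraries give less power. The labels state no pairing, so the replicate numbers were not taken as pairs. Deviations of same-numbered libraries over all genes tested had correlations of 0.0081, 0.0034 and -0.026. Scarce genes weigh as much as abundant ones in these values, so they cannot exclude pairing. With the replicate block 931 genes and the same 4 members were called. Cxcl16 had at most 6 read pairs in a library and Ccl4 35.8 to 78.0. Ccl9 had 116 to 169, close to Ccl3 (115 to 251), with a larger spread between CUMS libraries (coefficient of variation 36.5%, against 6.77%).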
